A study of Mus musculus with 6 samples.

Results

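The mitochondrial carriers of the SLC25 family were examined here as 1 group of genes in the RNA-sequencing of 6 libraries labelled as RPE-choroid. Every row of the deposited table with a symbol of SLC25A and a number was taken, together with UCP2, UCP3, MTCH1 and MTCH2, which are family members with other names. This gave 44 of the 16191 rows, 40 of them with an SLC25A symbol. SLC25A2, SLC25A5, SLC25A6 and SLC25A14 were not analysed here.

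The labels give 3 libraries as AAV-PDGF-D and 3 as AAV-GFP. Human PDGFD is the gene in the AAV-PDGF-D vector, and both vectors use the human VMD2 promoter, which is active in the retinal pigment epithelium (RPE), while the tissue also holds the vessels, fibroblasts and other cells of the choroid. The vector of the AAV-GFP libraries carries green fluorescent protein instead. All mice were C57BL/6J, bought at 6 to 8 weeks of age, and the tissue was taken 4 weeks after subretinal injection. It is not stated whether each library is a mouse of its own, so the p-values speak only to the variation among the libraries, and that may be technical.

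The rows of the table are human genes although the labels name mouse tissue, so the libraries are named by their labels and the values are not used to describe the mouse eye. The row of PDGFD was at 5.24, 6.28 and 6.36 FPKM in the libraries labelled AAV-PDGF-D and at 6.87, 6.56 and 6.86 FPKM in those labelled AAV-GFP, where FPKM are fragments scaled by gene length and by mapped fragments, and its values under the label that names it lay below the others without passing the test (adjusted p = 0.213, limma). HBA1, a hemoglobin chain, was at 219 FPKM in AAV-PDGF-D replicate 3 and 168 FPKM in AAV-GFP replicate 1, and at 0.319 FPKM or less in the other libraries. Of the RPE markers, 11 of 15 with a row reached 1 FPKM in every library, and RPE65, the retinoid isomerase of this epithelium, had a mean of 0.869 FPKM. TYRP1 and PMEL, pigment cell genes, were called lower. The summed level of the marker list of macrophages was 21.2 to 22.1 and 18.2 to 20.7 FPKM in the libraries labelled AAV-PDGF-D and AAV-GFP, nearly all of it CD68, which was higher (adjusted p = 0.0531, limma). CSF1R, the receptor that macrophages depend on, was called lower, at 0.697 ± 0.11 and 1.46 ± 0.369 FPKM (SD, n = 3 each) with the same labels (log2 fold change -0.95, adjusted p = 0.023, limma), and PTPRC, the CD45 antigen of leukocytes, had a mean of 0.0315 FPKM. The list of dividing cells summed to 38.4 to 42.2 FPKM with the label AAV-PDGF-D and 22.7 to 23.4 FPKM with the label AAV-GFP, and 6 of its 7 genes at 1 FPKM or more were called higher, a rule that 2.01% of all rows passed. At an adjusted p of at most 0.1, 6 of 12 RPE markers, 3 of 5 of fibroblasts, 2 of 6 of pericytes and smooth muscle and 2 of 2 of endothelial cells were lower, counting genes at 1 FPKM or more, against 11.7% of all rows. The endothelial list holds 7 genes, and only KDR and EGFL7 reached that level. PECAM1, CDH5 and VWF, endothelial markers, had means of 0.167, 0.0815 and 0.182 FPKM, so these libraries hold little from which to judge endothelial cells. The part of these lists in the results for the carriers was not tested. In bulk RNA, fewer cells of a type and less RNA per cell cannot be told apart.

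Carriers of this family move metabolites through the inner membrane of the mitochondrion, which is otherwise closed to most charged molecules. They share a fold built of repeated modules and include the exchangers of ADP for ATP, the supply of phosphate, the export of citrate for lipid synthesis, the aspartate and malate exchanges that carry reducing equivalents, and the entry of cofactors and iron. The RPE, a pigmented epithelium behind the photoreceptors, is known for its heavy use of mitochondrial oxidation of fatty acids, lactate and glutamine.

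Levels spanned a wide range. SLC25A3, the phosphate carrier that feeds ATP synthesis, was by far the most abundant of the 44 genes, at 604, 636 and 603 FPKM in the libraries labelled AAV-PDGF-D and 565, 559 and 571 FPKM in those labelled AAV-GFP. It held 36.2% to 36.8% and 37.2% to 38.1% of their summed FPKM. The ADP/ATP carriers SLC25A5 and SLC25A6 are not among the 44. MTCH1, an insertase homolog of the outer membrane, followed with a mean of 142 FPKM over the 6 libraries, then SLC25A1 with 119, SLC25A39 with 115, SLC25A10 with 79.6 and UCP2 with 62.2 FPKM. These 6 genes made up 69.6% of the summed level of the 44. In all, 7 genes were above 50 FPKM, 14 between 10 and 50, 15 between 1 and 10, and 8 below 1 FPKM. With the label AAV-GFP, SLC25A1 and SLC25A39 lay close together, at 108, 103 and 104 and at 103, 107 and 111 FPKM in replicates 1 to 3, with overlapping ranges. MTCH1 lay above both there, at 136, 139 and 143 FPKM.

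**Figure D1:**
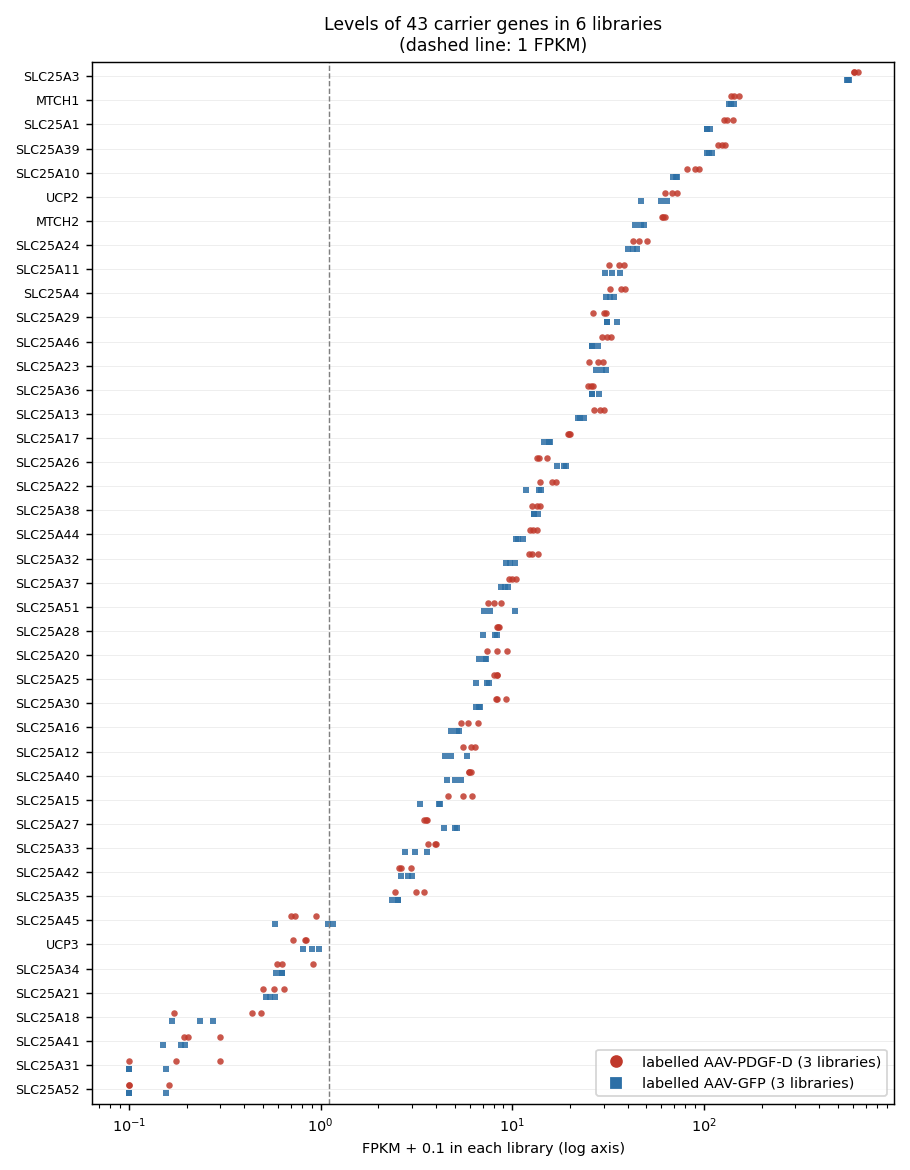
FPKM + 0.1 on a log axis for each of 43 genes, ordered by mean, with 1 circle for each of the 3 libraries labelled AAV-PDGF-D and 1 square for each of the 3 labelled AAV-GFP. SLC25A3 stands alone at a mean of 589.8 FPKM, and the 8 genes at the bottom have means below 1 FPKM.

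Among the genes under 1 FPKM, SLC25A31, the testis form of the ADP/ATP carrier, was listed at 0 FPKM in 1 library labelled AAV-PDGF-D and 2 labelled AAV-GFP, and at most at 0.199 FPKM. SLC25A52, a close copy of the NAD carrier gene SLC25A51 with which it may share reads, was at 0 in 2 libraries of each label and at most at 0.0626 FPKM. UCP3, the muscle uncoupling protein, was at 0.621, 0.739 and 0.734 FPKM with the label AAV-PDGF-D and 0.799, 0.879 and 0.713 FPKM with the label AAV-GFP, with overlapping ranges. The others were SLC25A45, SLC25A34, SLC25A21, SLC25A18 and SLC25A41, with means of 0.105 to 0.77 FPKM. None of the 8 could be called, and the depth behind these values is unknown, since the table holds no counts.

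To ask whether the carriers differed between the labels, groups were compared with limma on log2(FPKM + 0.1), and p was adjusted over all 13821 rows fitted. Changes were smaller than 1.5-fold in all 36 genes that could be called. Of the 36 genes with a mean of at least 1 FPKM, all of which were also at 1 FPKM or more in every library, 0 were called higher and 0 lower at an adjusted p of at most 0.1 with a fold change of at least 1.5, against 2.01% of all rows called higher and 1.75% called lower. At the same adjusted p without the fold threshold, 13 were higher and 2 lower with the label AAV-PDGF-D, against 20.9% of all rows higher and 11.7% lower, which is 36.1% and 5.56% of the 36 carriers. The words rose and fell are used for this rule without the fold threshold. At an unadjusted p below 0.05 there were 18 higher and 2 lower, where all rows gave 24.5% and 14.2%. The 3 libraries labelled AAV-PDGF-D lay above all 3 labelled AAV-GFP for 19 of the 36 genes and below them for 3, where all rows gave 27.3% and 16.4%. The log2 fold change was above 0 for 29 of the 36, where all rows gave 56.8%, and its median was 0.22 for the carriers and 0.037 for all 11444 rows that could be called. The median level of the 36 was 13.8 FPKM, near that of all rows, at 13.0 FPKM.

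These changes were small. Over the 13 genes that rose, the mean FPKM was 8.62% to 40.6% higher with the label AAV-PDGF-D, and the spread between libraries of a label, as a coefficient of variation, had a median of 6.16% with the label AAV-PDGF-D and 5.34% with the label AAV-GFP over the 36 genes. When the libraries were instead scaled to the nuclear-encoded respiratory chain genes, the median log2 fold change of all rows moved to -0.10 and that of the carriers to 0.07. With this scaling 7 of the 36 carriers were higher and 5 lower, against 708 higher and 2896 lower of all 11444 rows. Of all rows past the adjusted p, 64.1% were higher as deposited, 53.7% with TPM scaling, 53.2% with median-of-ratios scaling and 19.6% with the respiratory chain scaling. Without both libraries with hemoglobin, 9 carriers were higher and 0 lower. That fit had fewer libraries, and over all rows 1096 of 11438 were higher and 544 lower, against 2396 and 1341 of 11444 in the full fit. Calls of single carriers lost in it are to be read beside this drop. The same 7 genes, MTCH2, SLC25A1, SLC25A10, SLC25A13, SLC25A17, SLC25A30 and SLC25A32, rose under all 17 alternative settings tried.

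**Figure D2:**
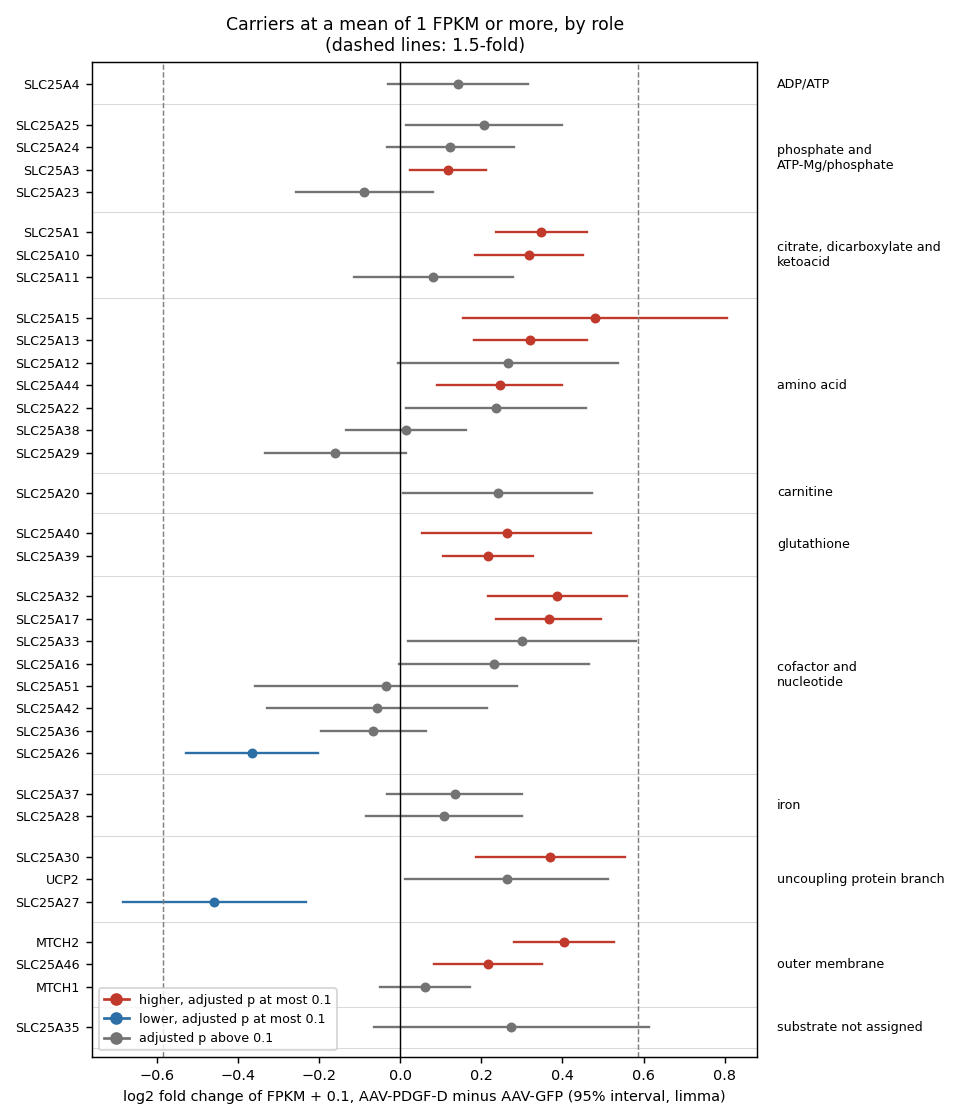
Log2 fold change of FPKM + 0.1, AAV-PDGF-D minus AAV-GFP, with its 95% interval from limma, for 35 carriers with a mean of at least 1 FPKM, grouped by what they carry. Red marks the 13 genes higher and blue the 2 lower at an adjusted p of at most 0.1, and every point lies inside the dashed lines of a 1.5-fold change.

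Among the carriers of citrate, dicarboxylates and ketoacids, 2 of 3 rose, where 20.9% of all rows did. SLC25A1, the citrate carrier that exports citrate for cytosolic acetyl-CoA, was at 141, 132 and 127 FPKM in the libraries labelled AAV-PDGF-D, against 108, 103 and 104 FPKM in those labelled AAV-GFP. The groups did not overlap, and the mean was 27.4% higher (log2 fold change 0.35, SE 0.05, adjusted p = 0.00389, limma). SLC25A10, which exchanges malate or succinate for phosphate, was at 90.1, 93.7 and 81.3 FPKM in the libraries labelled AAV-PDGF-D, against 69.2, 71.9 and 71.2 FPKM in those labelled AAV-GFP. It too was higher in all 3 libraries labelled AAV-PDGF-D, by 24.8% in the mean (log2 fold change 0.32, SE 0.06, adjusted p = 0.00919, limma). SLC25A11, the exchanger of oxoglutarate for malate, averaged 35.3 ± 3.09 and 33.3 ± 3.02 FPKM (SD, n = 3 each) with the labels AAV-PDGF-D and AAV-GFP, and its 95% interval of the log2 fold change, -0.11 to 0.28, held 0.

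Among the carriers of amino acids, 3 of 7 rose and 0 fell, where 20.9% and 11.7% of all rows did. SLC25A15 carries ornithine into the matrix for the urea cycle and had the largest fold change of the 36 genes, with 6.04, 5.45 and 4.51 FPKM in the libraries labelled AAV-PDGF-D, against 3.21, 4.07 and 4.1 FPKM in those labelled AAV-GFP. The groups did not overlap, but the spread within each was wide, and the mean was 40.6% higher (log2 fold change 0.48, SE 0.14, adjusted p = 0.0474, limma). The call was lost when any 1 of 3 libraries was left out, with an adjusted p of 0.126 without AAV-GFP replicate 1, 0.122 without AAV-PDGF-D replicate 1 and 0.123 without AAV-PDGF-D replicate 2, and without AAV-PDGF-D replicate 3 the log2 fold change of 0.59 passed the 1.5-fold threshold. With the respiratory chain scaling the call was lost as well (adjusted p = 0.125). Reads of SLC25A15 may be shared with close copies of the gene.

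SLC25A13, or citrin, is 1 of a pair of aspartate/glutamate carriers of the malate-aspartate shuttle, and was at 26.7, 29.9 and 28.6 FPKM in the libraries labelled AAV-PDGF-D, against 23.7, 22.6 and 21.9 FPKM in those labelled AAV-GFP. Every library labelled AAV-PDGF-D was above every other, with a mean 25.1% higher (log2 fold change 0.32, SE 0.06, adjusted p = 0.0104, limma). Its partner SLC25A12, or aralar, was at 5.45, 6.28 and 5.96 FPKM in the libraries labelled AAV-PDGF-D, against 5.7, 4.69 and 4.34 FPKM in those labelled AAV-GFP. AAV-GFP replicate 1 lay within the range of the AAV-PDGF-D label, and the difference did not pass (log2 fold change 0.27, adjusted p = 0.152, limma), but did without that library (adjusted p = 0.0632). SLC25A44, which carries branched-chain amino acids, rose, at 12.7 ± 0.536 and 10.7 ± 0.453 FPKM (SD, n = 3 each) with the labels AAV-PDGF-D and AAV-GFP (adjusted p = 0.0367, limma), with an adjusted p of 0.105 without AAV-GFP replicate 3, 0.101 without AAV-PDGF-D replicate 2 and 0.107 without AAV-PDGF-D replicate 3. Its call was also lost with the respiratory chain scaling (adjusted p = 0.402) and without both libraries with hemoglobin (adjusted p = 0.135).

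The glutamate carrier SLC25A22 was at 15.9, 16.7 and 13.9 FPKM in the libraries labelled AAV-PDGF-D, against 14, 13.8 and 11.7 FPKM in those labelled AAV-GFP. The groups overlapped through AAV-PDGF-D replicate 3, and the difference did not pass (log2 fold change 0.24, adjusted p = 0.124, limma), but did without that library (adjusted p = 0.0772) and without both libraries with hemoglobin (adjusted p = 0.0999). SLC25A38, a glycine carrier needed for heme synthesis, had a log2 fold change of 0.02 (95% interval -0.13 to 0.16). SLC25A29, a carrier of basic amino acids, averaged 28.9 ± 2.23 and 32.3 ± 2.31 FPKM (SD, n = 3 each) with the labels AAV-PDGF-D and AAV-GFP. All its AAV-PDGF-D values were below the others, and the difference did not pass (adjusted p = 0.174, limma), except with the respiratory chain scaling (adjusted p = 0.0182).

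Both glutathione carriers rose, where 20.9% of all rows did. SLC25A39, which brings glutathione into the matrix, was at 119, 129 and 124 FPKM in the libraries labelled AAV-PDGF-D, against 103, 107 and 111 FPKM in those labelled AAV-GFP, and its groups did not overlap (log2 fold change 0.22, SE 0.05, adjusted p = 0.0189, limma). The call was lost with the respiratory chain scaling (adjusted p = 0.373) and without both libraries with hemoglobin (adjusted p = 0.147). Its less abundant homolog SLC25A40 was at 5.98, 5.82 and 5.86 FPKM in the libraries labelled AAV-PDGF-D, against 4.49, 4.91 and 5.31 FPKM in those labelled AAV-GFP. The libraries labelled AAV-PDGF-D were nearly equal and above the others, while those labelled AAV-GFP were spread (log2 fold change 0.26, SE 0.09, adjusted p = 0.0772, limma). This call was close to the threshold, with an adjusted p of 0.199 without AAV-GFP replicate 1, 0.143 without AAV-GFP replicate 2, 0.146 without AAV-PDGF-D replicate 1, 0.157 without AAV-PDGF-D replicate 2 and 0.153 without AAV-PDGF-D replicate 3. It was lost under every other scaling, with an adjusted p of 0.121 for TPM, 0.125 for median-of-ratios and 0.434 for the respiratory chain, and also without both libraries with hemoglobin (adjusted p = 0.297) and without the filter on low values (adjusted p = 0.102).

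Of the carriers of cofactors and nucleotides, 2 of 9 were higher and 1 lower. These shares of 22.2% and 11.1% were near the 20.9% and 11.7% of all rows. SLC25A32, the folate carrier that is also linked to FAD, was at 12.1, 12.6 and 13.6 FPKM in the libraries labelled AAV-PDGF-D, against 9.69, 10.3 and 9.18 FPKM in those labelled AAV-GFP. The lowest value with the label AAV-PDGF-D was 12.1 FPKM and the highest with the label AAV-GFP was 10.3 FPKM (log2 fold change 0.39, SE 0.07, adjusted p = 0.0109, limma). SLC25A17 lies in the peroxisome, where it carries CoA, FAD and NAD, and was at 19.5, 19.7 and 19.8 FPKM in the libraries labelled AAV-PDGF-D, against 15.7, 15.5 and 14.5 FPKM in those labelled AAV-GFP. Its AAV-PDGF-D values lay close to each other and apart from the others (log2 fold change 0.37, SE 0.06, adjusted p = 0.00514, limma). SLC25A26, which brings S-adenosylmethionine, the methyl donor, into mitochondria, fell, at 13.7, 15.1 and 13.4 FPKM in the libraries labelled AAV-PDGF-D, against 18.5, 17.1 and 18.9 FPKM in those labelled AAV-GFP. The groups did not overlap, and the mean fell by 22.4% (log2 fold change -0.36, SE 0.07, adjusted p = 0.0113, limma), but without both libraries with hemoglobin the adjusted p was 0.108.

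The other genes of this group did not pass. SLC25A33, a pyrimidine nucleotide carrier, was at 3.88, 3.86 and 3.55 FPKM in the libraries labelled AAV-PDGF-D, against 3.02, 3.48 and 2.66 FPKM in those labelled AAV-GFP. The groups did not overlap (log2 fold change 0.30, adjusted p = 0.122, limma), and the difference passed without AAV-GFP replicate 2 (adjusted p = 0.0732). Its more abundant paralogue SLC25A36 was at 24.7, 26.1 and 25.7 FPKM in the libraries labelled AAV-PDGF-D, against 28.2, 25.9 and 26 FPKM in those labelled AAV-GFP, with overlapping groups and a log2 fold change of -0.07 (95% interval -0.19 to 0.06), and passed as lower with the respiratory chain scaling (adjusted p = 0.0526). SLC25A16, SLC25A42, which carries CoA, and SLC25A51, which carries NAD, had log2 fold changes of -0.06 to 0.23.

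In the branch of the uncoupling proteins, 1 gene of 3 rose and 1 fell, where 20.9% and 11.7% of all rows did. SLC25A27, also known as UCP4 and best known from neurons, was at 3.35, 3.47 and 3.5 FPKM in the libraries labelled AAV-PDGF-D, against 4.94, 5.04 and 4.33 FPKM in those labelled AAV-GFP. The AAV-PDGF-D values lay close together below all others, and this was the largest fall of the 36 genes, with the mean down to 3.44 ± 0.0762 FPKM, against 4.77 ± 0.387 FPKM with the label AAV-GFP (SD, n = 3 each; log2 fold change -0.46, SE 0.10, adjusted p = 0.016, limma). Without both libraries with hemoglobin the adjusted p was 0.113, and with the respiratory chain scaling the log2 fold change was -0.60 and passed the 1.5-fold threshold. SLC25A30, the kidney mitochondrial carrier, was at 8.08, 9.23 and 8.18 FPKM in the libraries labelled AAV-PDGF-D, against 6.39, 6.65 and 6.58 FPKM in those labelled AAV-GFP, with no overlap (log2 fold change 0.37, SE 0.08, adjusted p = 0.0166, limma). UCP2, an uncoupling protein of many tissues, was at 62.2, 72.6 and 68.1 FPKM in the libraries labelled AAV-PDGF-D, against 59.2, 63.7 and 47.1 FPKM in those labelled AAV-GFP. AAV-GFP replicate 3 was the lowest and AAV-GFP replicate 2 lay above AAV-PDGF-D replicate 1, so the groups overlapped (log2 fold change 0.26, adjusted p = 0.129, limma), and the difference passed without AAV-GFP replicate 2 (adjusted p = 0.0654).

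In the outer membrane, 2 of 3 genes, MTCH2 and SLC25A46, rose, where 20.9% of all rows did, and MTCH1 did not pass. MTCH2 acts as an insertase for proteins with membrane anchors and was at 61.1, 62.9 and 60.3 FPKM in the libraries labelled AAV-PDGF-D, against 48.8, 46.9 and 43.5 FPKM in those labelled AAV-GFP. The groups stood well apart, the mean was 32.3% higher, and the adjusted p was the lowest of all carriers (log2 fold change 0.40, SE 0.05, adjusted p = 0.00318, limma). MTCH1, its homolog, was at 153, 144 and 139 FPKM in the libraries labelled AAV-PDGF-D, against 136, 139 and 143 FPKM in those labelled AAV-GFP, with overlapping groups and a log2 fold change of 0.06 (95% interval -0.05 to 0.17). SLC25A46, which takes part in mitochondrial fission and lipid exchange, averaged 31 ± 1.63 and 26.7 ± 1.02 FPKM (SD, n = 3 each) with the labels AAV-PDGF-D and AAV-GFP (adjusted p = 0.0355, limma), with an adjusted p of 0.103 without AAV-GFP replicate 3, 0.101 without AAV-PDGF-D replicate 2 and 0.105 without AAV-PDGF-D replicate 3. The call was also lost with the respiratory chain scaling (adjusted p = 0.496) and without both libraries with hemoglobin (adjusted p = 0.128).

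Among 5 carriers of phosphate and of adenine nucleotides, 1 rose and 0 fell, where 20.9% and 11.7% of all rows did. The rise of 1 of 5 was near that share. SLC25A3 rose by 8.62% in the mean, and although its groups did not overlap, the call was near the threshold (log2 fold change 0.12, SE 0.04, adjusted p = 0.0768, limma), with an adjusted p of 0.169 without AAV-GFP replicate 1, 0.176 without AAV-GFP replicate 2, 0.132 without AAV-GFP replicate 3, 0.22 without AAV-PDGF-D replicate 2 and 0.111 without AAV-PDGF-D replicate 3, and its log2 fold change turned to -0.02 with the respiratory chain scaling. The call was also lost with TPM scaling (adjusted p = 0.153), median-of-ratios scaling (0.176), no variance trend (0.173), no filter on low values (0.109) and without both libraries with hemoglobin (0.231). SLC25A4, the ADP/ATP carrier of heart and muscle and the only one of its kind above 1 FPKM among the rows here, was at 36.6, 38.5 and 32.1 FPKM in the libraries labelled AAV-PDGF-D, against 30.6, 32.4 and 33.8 FPKM in those labelled AAV-GFP. The groups overlapped through AAV-PDGF-D replicate 3, and the difference did not pass (log2 fold change 0.14, adjusted p = 0.216, limma), but did without that library (adjusted p = 0.0687).

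The ATP-Mg/phosphate carriers, which set the size of the matrix adenine nucleotide pool under control of calcium, did not pass on the FPKM as deposited. SLC25A24 was at 42.8, 45.9 and 50.1 FPKM in the libraries labelled AAV-PDGF-D, against 44.4, 42.5 and 40.3 FPKM in those labelled AAV-GFP, with overlap. SLC25A23 was at 27.8, 29.5 and 25.1 FPKM in the libraries labelled AAV-PDGF-D, against 27.3, 30.8 and 29.4 FPKM in those labelled AAV-GFP, also with overlap, and passed as lower with the respiratory chain scaling (log2 fold change -0.23, adjusted p = 0.0618, limma). SLC25A25 was at 8.23, 7.94 and 8.24 FPKM in the libraries labelled AAV-PDGF-D, against 6.39, 7.49 and 7.26 FPKM in those labelled AAV-GFP. For SLC25A25 alone the groups were apart, and its log2 fold change of 0.21 had an adjusted p of 0.119 from limma, or 0.098 when the fit was limited to rows averaging 1 FPKM or more.

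Neither iron carrier passed. SLC25A37, mitoferrin-1, was at 9.91, 10.4 and 9.5 FPKM in the libraries labelled AAV-PDGF-D, against 9.42, 8.6 and 9.11 FPKM in those labelled AAV-GFP. SLC25A28, mitoferrin-2, was at 8.27, 8.36 and 8.38 FPKM in the libraries labelled AAV-PDGF-D, against 8.02, 6.97 and 8.26 FPKM in those labelled AAV-GFP. For both, each AAV-PDGF-D value was above each of the others, as in 27.3% of all rows, and the gap was smaller than the spread of the AAV-GFP values. The log2 fold changes were 0.13 (adjusted p = 0.227) and 0.11 (adjusted p = 0.401) from limma. SLC25A20, which brings acylcarnitines to fatty acid oxidation, averaged 8.28 ± 1.02 and 6.96 ± 0.322 FPKM (SD, n = 3 each) with the labels AAV-PDGF-D and AAV-GFP, and did not pass (adjusted p = 0.133, limma) except without AAV-PDGF-D replicate 2 (adjusted p = 0.0769). SLC25A35, whose substrate is not assigned, had a log2 fold change of 0.27 (adjusted p = 0.228, limma), which passed without AAV-PDGF-D replicate 3 (adjusted p = 0.0769).

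**Figure D3:**
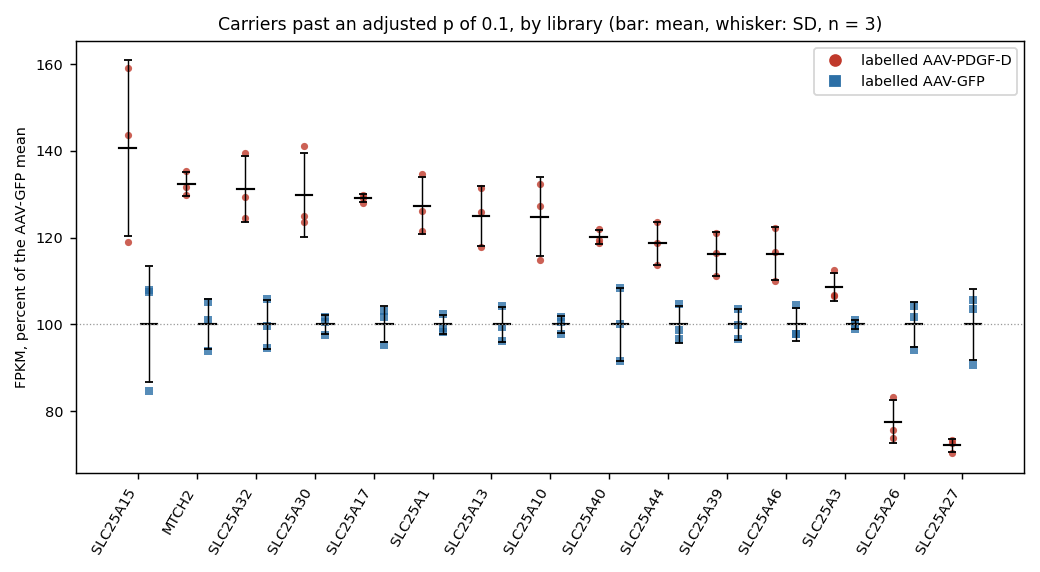
FPKM of the 15 carriers past an adjusted p of 0.1, in percent of the mean with the label AAV-GFP, by library (circles AAV-PDGF-D, squares AAV-GFP, bar the mean, whisker the SD, n = 3 each). The 15 genes were picked by that p from these same values, so groups lying apart, 13 above and 2 below, are no further result. Of all rows, 27.3% lay apart above and 16.4% below. SLC25A15 is the most spread.

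As FPKM are scaled by length, the make-up of families of close paralogues could be compared within each library. Exact two-sided permutation tests of the 3 against 3 libraries cannot give a p below 0.1, and 7 families were compared. Of the sum of MTCH1 and MTCH2, MTCH2 made up 28.6, 30.4 and 30.3% with the label AAV-PDGF-D, against 26.5, 25.3 and 23.3% with the label AAV-GFP. The share lay above all AAV-GFP values in each library labelled AAV-PDGF-D, by 4.72 percentage points in the mean (exact permutation p = 0.1, adjusted p = 0.35). Of the sum of SLC25A33 and SLC25A36, SLC25A33 made up 13.6, 12.9 and 12.1% with the label AAV-PDGF-D, against 9.68, 11.8 and 9.28% with the label AAV-GFP, again with no overlap (difference 2.61 percentage points, exact permutation p = 0.1, adjusted p = 0.35). Neither passed.

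In the other families the shares overlapped between the labels. SLC25A13 held 82.8% ± 0.226 and 82.3% ± 1.49 (SD, n = 3 each) of the aspartate/glutamate carriers, SLC25A39 held 95.5% ± 0.245 and 95.6% ± 0.205 (SD, n = 3 each) of the glutathione carriers and SLC25A22 held 98.3% ± 1.08 and 99% ± 0.488 (SD, n = 3 each) of the glutamate carriers, with the labels AAV-PDGF-D and AAV-GFP, so that each of these families was mostly 1 gene. The mitoferrins were more even, with SLC25A28 at 45.6% ± 1.16 and 46.1% ± 1.39 (SD, n = 3 each), and SLC25A24 held 56.5% ± 3.11 and 53.9% ± 2.52 (SD, n = 3 each) of the ATP-Mg/phosphate carriers SLC25A23, SLC25A24 and SLC25A25. The exact permutation p of these 5 families was between 0.4 and 0.9.

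**Figure D4:**
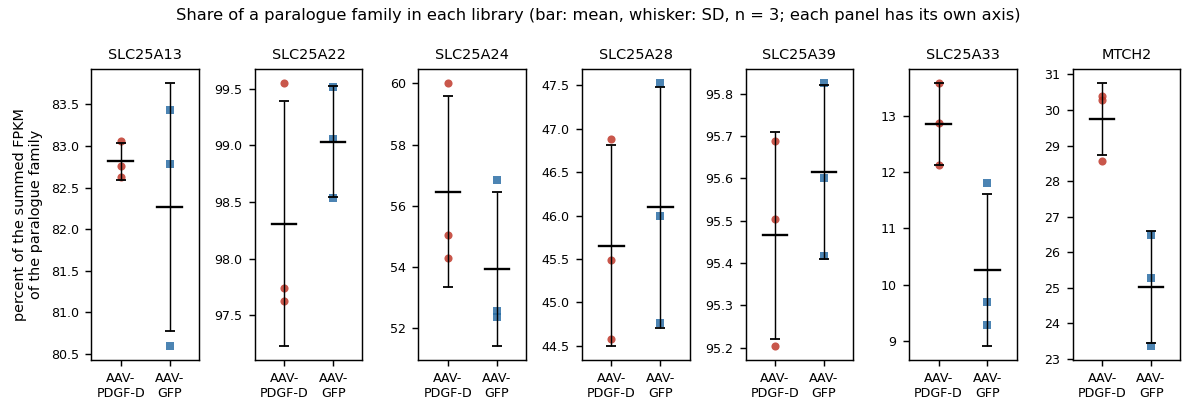
Share of 1 named gene in the summed FPKM of its family in each library, in percent (circles AAV-PDGF-D, squares AAV-GFP, bar the mean, whisker the SD, n = 3 each); each panel has its own axis, which does not start at 0. The labels are apart for SLC25A33 and MTCH2, with means of 29.7% and 25% for MTCH2, and overlap for the other 5.

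The partners of the carriers were read in the same fit, with 20.9% of all rows higher and 11.7% lower. The enzymes that use or feed the citrate and malate-aspartate shuttles rose in 10 of 12 cases and fell in 0, with a median log2 fold change of 0.22. Of these, 2 were called higher at 1.5-fold, a rule that 2.01% of all rows passed, and 1 was with the respiratory chain scaling. IDH1, the cytosolic isocitrate dehydrogenase, averaged 72.4 ± 2.13 and 38.9 ± 4.44 FPKM (SD, n = 3 each; log2 fold change 0.90, SE 0.08, adjusted p = 0.00104, limma) with the labels AAV-PDGF-D and AAV-GFP. ACLY, which splits exported citrate into acetyl-CoA, averaged 144 ± 1.63 and 90.2 ± 9.37 FPKM (SD, n = 3 each; log2 fold change 0.68, SE 0.07, adjusted p = 0.00154, limma) with the same labels. ME1, the cytosolic malic enzyme, and GOT1, the cytosolic aspartate aminotransferase, rose by 0.56 and 0.44 on the log2 scale. With the respiratory chain scaling 4 of the 12 rose and 1 fell, without both libraries with hemoglobin 5 rose, and without a variance trend in the fit 6 rose.

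Of the machinery that imports the carriers, 6 of 12 genes rose and 0 fell, where 20.9% and 11.7% of all rows did. The median log2 fold change was 0.20. The changes were 0.51 for TIMM8B and 0.28 for TIMM10B, small proteins of the TIM complexes, 0.31 for TOMM40, the pore of the outer membrane, and 0.29 for TOMM22, a receptor beside it, all as log2 fold changes. Without both libraries with hemoglobin 3 of the 12 rose, and with the respiratory chain scaling 2 rose. Of the 12, 0 were called at 1.5-fold, and 1 was without AAV-GFP replicate 3, without AAV-PDGF-D replicate 3 or without both libraries with hemoglobin.

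Of 16 mitochondrial transporters outside the family, 8 rose and 1 fell, where 20.9% and 11.7% of all rows did. MPC1, a subunit of the pyruvate carrier, averaged 11.5 ± 1.38 and 7.56 ± 0.412 FPKM (SD, n = 3 each; log2 fold change 0.59, SE 0.10, adjusted p = 0.00677, limma) with the labels AAV-PDGF-D and AAV-GFP, and MPC2, its partner, rose by 0.41 on the log2 scale. SFXN2, a sideroflexin at low level, was called at 0.64. No gene of the list was called higher with a pseudocount of 1, with the respiratory chain scaling, without AAV-GFP replicate 3, without AAV-PDGF-D replicate 3 or without both libraries with hemoglobin, and 5 rose without AAV-GFP replicate 3, 5 without both libraries with hemoglobin and 4 with the respiratory chain scaling. CPT1A, which makes the acylcarnitines that SLC25A20 brings in, averaged 2.72 ± 0.113 and 4.61 ± 0.576 FPKM (SD, n = 3 each; log2 fold change -0.74, SE 0.12, adjusted p = 0.00589, limma) with the same labels, and the list held 1 gene called lower in every setting. Of the regulators of mitochondrial gene expression, 3 of 8 rose, namely TFB1M, TFB2M and TFAM, with log2 fold changes of 0.44, 0.40 and 0.33. Without AAV-GFP replicate 1, 5 of 8 rose. None of the 8 fell, except 1 with TPM, median-of-ratios or respiratory chain scaling.

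The nuclear-encoded respiratory chain, the list used for the alternative scaling, rose in 23 of 69 genes and fell in 0, where 20.9% and 11.7% of all rows did. Its median log2 fold change was 0.14, against 0.22 for the 36 carriers. The rule with the 1.5-fold threshold called 2.01% of all rows higher, and 1 gene here. The 1 gene called at 1.5-fold, named after its value was seen, was NDUFS6 of complex I, with a log2 fold change of 0.65, and 0 were called without AAV-GFP replicate 2, without AAV-PDGF-D replicate 3 or without both libraries with hemoglobin, while 2 were called without AAV-PDGF-D replicate 1. Without both libraries with hemoglobin 15 of the 69 rose. With TPM or median-of-ratios scaling 2 fell, and 1 fell when replicate 2 of the label AAV-GFP, or either of replicates 1 and 2 of the label AAV-PDGF-D, was left out. Scaled to the list itself, 7 rose and 9 fell. Whether carriers and respiratory chain genes differed as lists was not tested.

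**Figure D5:**
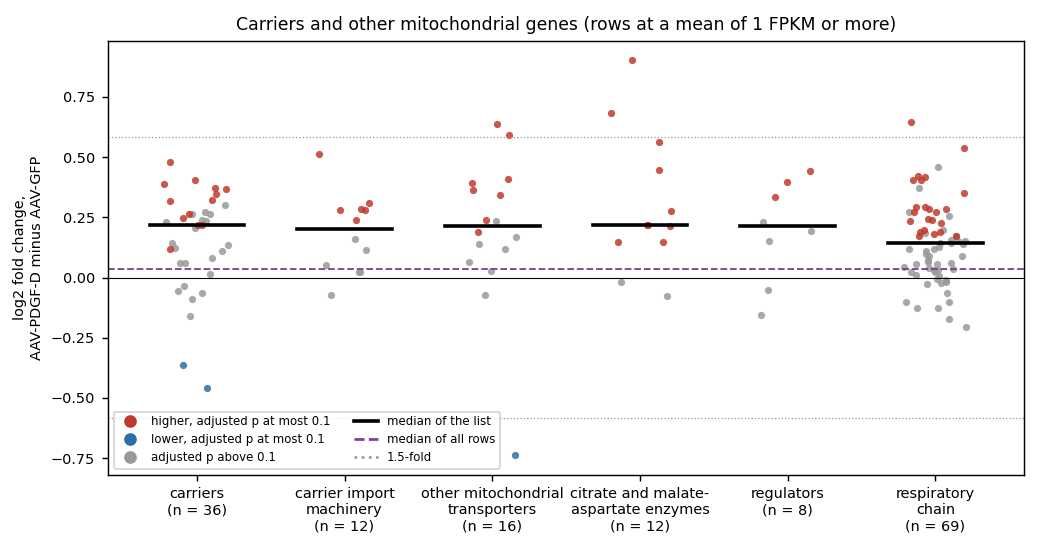
Log2 fold change, AAV-PDGF-D minus AAV-GFP, of every gene with a mean of at least 1 FPKM in the carriers and 5 other lists (points), with the median of each list (black bar) and of all rows (dashed line). The medians lie between 0.14 for the respiratory chain and 0.22 for the carriers and for the enzymes of the shuttles, above the 0.037 of all rows, and CPT1A is the lowest point.

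By library, the summed level of the 44 genes was 1670, 1729 and 1638 FPKM in replicates 1 to 3 of the label AAV-PDGF-D and 1507, 1505 and 1499 FPKM in those of the label AAV-GFP, or 0.321% to 0.334% and 0.297% to 0.301% of all FPKM in the table. AAV-PDGF-D replicate 2 was the highest. Compared with the AAV-GFP mean of each gene, 29, 31 and 24 of the 36 genes were higher in AAV-PDGF-D replicates 1, 2 and 3. The 18 to 20 genes higher in the AAV-GFP libraries are no contrast, since those libraries set the mean. The median log2 ratio of the 36 genes to that mean was 0.16, 0.22 and 0.16 in AAV-PDGF-D replicates 1 to 3. Over all rows that could be called it was 0.026, 0.055 and 0.044.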

How the data were processed

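RNA of 6 libraries was sequenced, 3 labelled AAV-PDGF-D and 3 labelled AAV-GFP. The authors deposited 1 table of FPKM, and the submitters list RSEM 1.2.29, STAR 2.4.2a and mm10, a mouse genome build. Its rows are 15504 human Ensembl genes with symbols and 687 new genes. Which human annotation was used is not given in the sources used here. Read depth is unknown, since no counts are in the table, and the strand setting is not stated. The summed FPKM differs between libraries, so TPM, median-of-ratios and respiratory chain scaling were tried.

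Values were analysed as log2(FPKM + 0.1) with limma 3.58.1 in R 4.3.3, with the variance trend, after leaving out rows whose mean was below 0.1 FPKM (13821 stayed), and p-values were adjusted by the Benjamini-Hochberg method. For low genes, fold changes on the log2(FPKM + 0.1) scale are smaller than the true change. Calls were limited to genes averaging 1 FPKM or more and needed an adjusted p no higher than 0.1, with a 1.5-fold change added in the stricter rule. The fit was tested on simulated data. Of the carriers, 1 is counted in the totals but its own values are not reported here. Values in every library are given for the 10 carriers with the largest absolute log2 fold change, the 6 with the highest mean and the members of paralogue families at 1 FPKM or more, and up to 4 genes past the adjusted p are named per partner list. The remaining carriers and marker genes were named after their values were seen. Paralogue shares were compared by exact permutation with scipy 1.17.1. Alternatives were other pseudocounts, filters, scalings and thresholds, a replicate block, and leaving out libraries. The members and lists were chosen with earlier results of these data known.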

Additional observations from a re-analysis of the deposited data

How the results depend on the processing

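The number of carriers called at 1.5-fold was 0 in each direction, except 1 higher (SLC25A15) without AAV-PDGF-D replicate 3, a range of 0 to 1 when 1 library was left out, and 1 lower (SLC25A27) with the respiratory chain scaling. At an adjusted p of at most 0.1, 13 carriers were higher and 2 lower. These counts became 7 and 5 with the respiratory chain scaling and 9 and 0 without both libraries with hemoglobin, and 9 to 13 were higher and 2 lower when 1 library was left out. Over all rows, the respiratory chain scaling gave 708 higher and 2896 lower, and the fit without both libraries with hemoglobin gave 1096 and 544. The libraries' replicate numbers did not pair them (residual correlations of -0.20, 0.0039 and -0.13). Between unlike numbers these correlations were -0.19 to 0.29, highest for AAV-PDGF-D replicate 3 and AAV-GFP replicate 1, both with hemoglobin. No other pairing was tested. With the replicate block 11 carriers were higher and 2 lower, with the calls of SLC25A3, SLC25A40 and SLC25A44 lost (adjusted p = 0.201, 0.147 and 0.1003, limma) and SLC25A22 gained (0.0774). Over the partner lists together, 4 genes were called higher, against 2 with a pseudocount of 1 and 1 with the respiratory chain scaling. At the adjusted p, 27 were higher and 1 lower, against 13 and 3 with the respiratory chain scaling, 15 higher without both libraries with hemoglobin, and 2 lower with TPM or median-of-ratios scaling. The median log2 fold change of the respiratory chain was -0.000822 under its own scaling. That scaling also turned SLC25A3 (-0.0236), MTCH1 (-0.0815), SLC25A24 (-0.0182), SLC25A11 (-0.0601), SLC25A38 (-0.126), SLC25A37 (-0.00697) and SLC25A28 (-0.0325). The log2 fold change of SLC25A38 was also -0.0157 with TPM scaling, -0.0220 with median-of-ratios scaling, -0.0217 without both libraries with hemoglobin, -0.00103 without AAV-GFP replicate 3 and -0.0134 without AAV-PDGF-D replicate 3, in a range of -0.0134 to 0.0538 over the single libraries left out. SLC25A51 turned to 0.126 without AAV-GFP replicate 2 and 0.0223 without AAV-PDGF-D replicate 2 (range -0.142 to 0.126) and SLC25A42 to 0.0332 without both libraries with hemoglobin. The cause was not tested. The share of ADP/ATP carriers could not be computed, since SLC25A5 and SLC25A6 were not analysed here. With 3 libraries a label and no counts, the precision of low genes is unknown.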
